A study of Pseudotsuga menziesii with 83 samples.

Results

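Douglas-fir needles collected on 7 April were compared between trees of Oregon and Washington origin at the time when the first buds had opened. The 12 libraries are all those of that date in the count table, out of 46 libraries used here and 83 in the series. The Oregon group was 4 trees of the Oregon Siskiyou seed source (ORSI), and the Washington group was 4 trees of the Washington Cascades source (WACA) and 4 of the Washington Coast source (WACS). On that date the labels record Oregon trees 44, 46 and 89 as post-budbreak, and Oregon tree 90 and all 8 Washington trees as pre-budbreak. Tree 90 is therefore given beside the other 3 Oregon trees throughout. All 4 Oregon trees are labelled post-budbreak by 22 April, when Washington tree 05 is the only one of the 8 with that label.

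The study followed needle transcripts through the transition out of winter dormancy in trees of several origins grown in 1 common garden, from which mature needles of the previous year were taken. Each source was represented by 2 families with 2 half-siblings each, so that the Oregon group was 1 family of trees 44 and 90 and 1 family of trees 46 and 89. The labels name no treatment, and all the trees stood in the same garden. The groups differ at once in origin and, for 3 of 4 Oregon trees, in the recorded state of the buds, and these cannot be told apart in a comparison of the groups.

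Temperate conifers stop growing in autumn, set buds and harden against frost. Chilling followed by warmth releases the buds in spring, when the scales part and new needles emerge, and trees of different origins in 1 garden can flush at different times under the same weather. The needles sampled here are not the bursting organ. They overwintered on the branch, where they recover photosynthesis in spring and serve as a source of carbon and nitrogen for the new shoot.

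A feature is a numbered transcript model of the count table. The table does not pair these numbers with gene names, so pathways, cell types and the identity of the tissue could not be checked against markers, and 4 features are printed by number. Whether a feature came from the tree or from other organisms on the needles could not be checked either. Of 90662 features, the 33614 with more than 5 counts in at least 4 of the 12 April libraries were tested. The deposited totals were nearly equal, 11294190 to 11298305 counts per library, so depth did not differ between the groups as deposited. The replicates are separate trees, and half-siblings within a family are not fully independent.

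What the counts consisted of did differ between libraries. The 50 most abundant features, ranked on the libraries of the other dates, took 25.5%, 21.8%, 23.5% and 27.2% of the counts in Oregon trees 44, 90, 46 and 89. In the Washington trees the lowest share was 15.3%, the median 19.4% and the highest 28.4%, in tree 38. The mean was 24.5% ± 2.35 in Oregon trees (SD, n = 4) and 19.7% ± 3.97 in Washington trees (SD, n = 8), and the exact two-sided permutation test over trees gave p = 0.0545. The same exact permutation test gave p = 0.00303 without Washington tree 38 and p = 0.0485 without Oregon tree 90, so single libraries decided the call. Leaving out any other single tree gave an exact permutation p of 0.0727 to 0.127, the highest without Oregon tree 89. With half-siblings averaged per family the difference was the same (exact permutation p = 0.2). Of these 50 features, 43 had a higher fitted level in Oregon trees and 7 a lower one, of which 8 and 0 had an unadjusted p of at most 0.05. Detected features, those with a count above 0, numbered 50046 ± 1691 in Oregon trees (SD, n = 4) and 52065 ± 2051 in Washington trees (SD, n = 8; exact permutation p = 0.119). Tree 90 had the lowest share of abundant features and the most detected features of the 4 Oregon trees.

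The question for the whole transcriptome was how far needles of Oregon trees differed from needles of Washington trees. Every tree labelled post-budbreak on that date was an Oregon tree, so the comparison cannot separate bud state from origin. In a principal component analysis of log2 CPM (counts scaled to a common library size) the Oregon trees lay at -133.9 to -2.72 on the first component, which held 18.6% of the variance, and the Washington trees at -15.6 to 76.0. The ranges overlapped only through Oregon tree 90, at -2.72, and Washington tree 38, at -15.6. Oregon tree 89 stood farthest out at the negative end. The root mean square distance between libraries had a median of 0.996 log2 units over the 32 pairs of an Oregon and a Washington tree. It was 0.930 over the 16 pairs of a Cascades and a Coast tree and 0.908 over the 6 pairs of half-siblings. Over the 12 pairs of trees of 1 source but different families it was 0.942, above that of the Cascades and Coast pairs. Among the Oregon trees, tree 90 was the only one whose median distance to the Washington trees (0.904) was below its median distance to the other Oregon trees (0.949). For tree 89 the distance to the Washington trees was the larger of the pair.

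**Figure D1:**
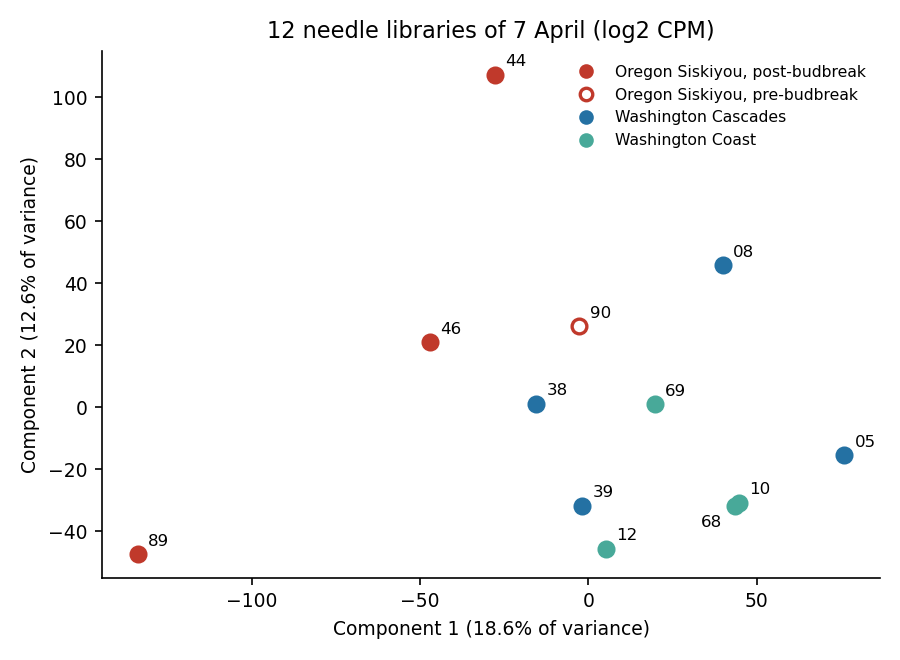
First and second principal components of the log2 CPM of the features tested in the 12 libraries of 7 April, with the share of variance on each axis. Each point is 1 tree with its number, the open point is Oregon tree 90, labelled pre-budbreak, and all Washington trees are also pre-budbreak. The post-budbreak Oregon trees lie at the left, with tree 89 at -133.9 on component 1, and tree 90 lies at -2.72, to the right of Washington tree 38.

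At the adjusted threshold of 0.01 edgeR called 0 of 33614 features (0%), where DESeq2 called 160, of which 109 were higher and 51 lower in Oregon trees. DESeq2 gave no adjusted p (NA) for 2681 features. With the threshold at 0.05 the edgeR calls were 3, all higher in Oregon trees (0.00892% of those tested). Without adjustment, 4580 features (13.6%) had a p of at most 0.05 in edgeR, 2551 higher and 2029 lower in Oregon needles, and their median absolute log2 change was 0.84. That fit took half-siblings as separate trees. With counts added up per family the number was 3708 (11%), of which 62.3% were higher in Oregon. Here, as in the following comparisons, a lower level can mean fewer cells of a type or less RNA per cell, which bulk needles cannot tell apart.

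The direction of these differences depended on how the libraries were scaled. With TMM factors the median log2 change of all features was 0.0054, and 55.7% of the 4580 were higher in Oregon. With total counts alone, a setting chosen after the data were seen, the median moved to -0.19 and only 24.8% of 5268 features were higher in Oregon. The TMM factors were 0.807 to 1.04 in Oregon trees and 0.898 to 1.18 in Washington trees. The features that were most abundant, with a mean count over 1000, were higher in Oregon in 228 of the 301 cases with an unadjusted p of at most 0.05 (75.7%). This share was 51.3% at mean counts of 100 to 1000, 51.6% at 30 to 100, 59.6% at 10 to 30 and 59.4% under 10.

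Fewer features passed the unadjusted level in fits with a term for the make-up of the libraries. With the share of the 50 most abundant features as a covariate, 2006 features (5.97%) passed that unadjusted level, and with the number of detected features as a covariate 2453 (7.30%), both settings chosen after the data were seen. Neither fit called a feature at the adjusted threshold. The log2 changes of the named features gene73506, gene47717 and gene4197 were no smaller in these fits (8.00 and 7.14, 4.45 and 4.41, -1.67 and -1.66) than without the term (6.23, 3.88 and -1.61), whereas that of gene31129 was -2.02 and -2.20 in place of -2.48. Their adjusted p in edgeR rose, from 0.0349 to 0.109 and 0.102 for gene73506 and from 0.0349 to 0.172 and 0.102 for gene47717. It rose from 0.0774 to 0.274 and 0.213 for gene4197 and from 0.0775 to 0.593 and 0.293 for gene31129. The share of abundant features had the higher mean in Oregon trees, and with these 12 libraries its part and that of origin cannot be told apart. Libraries of both groups were spread over 2 flowcells. The trees of flowcell fc1022 alone (2 Oregon, 4 Washington) gave 2499 features (7.43%), those of fc1025 alone gave 3728 (11.1%), and the fit with the flowcell as a covariate gave 4616 (13.7%).

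A difference between 2 origins can also exist with no difference in recorded bud state, and the 2 Washington sources gave an example. Both Washington sources lie at nearly the same latitude, well north of the Oregon source. Their contrast therefore does not measure the part of origin in the difference between Oregon and Washington trees. Oregon against Cascades trees, with 4 trees each, gave 3463 features (10.3%) past the unadjusted level of 0.05, and Oregon against Coast trees gave 4021 (12%). Cascades against Coast trees, all pre-budbreak, gave 1603 (4.77%). The adjusted edgeR calls at 0.01 were 0, 2 and 4 in these comparisons, and DESeq2's were 92, 88 and 29. Cascades against Coast trees thus had the lowest number at an unadjusted p and in DESeq2, though not in edgeR's calls, and no test was made of whether the 3 numbers differ. The comparisons share trees.

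**Figure D2:**
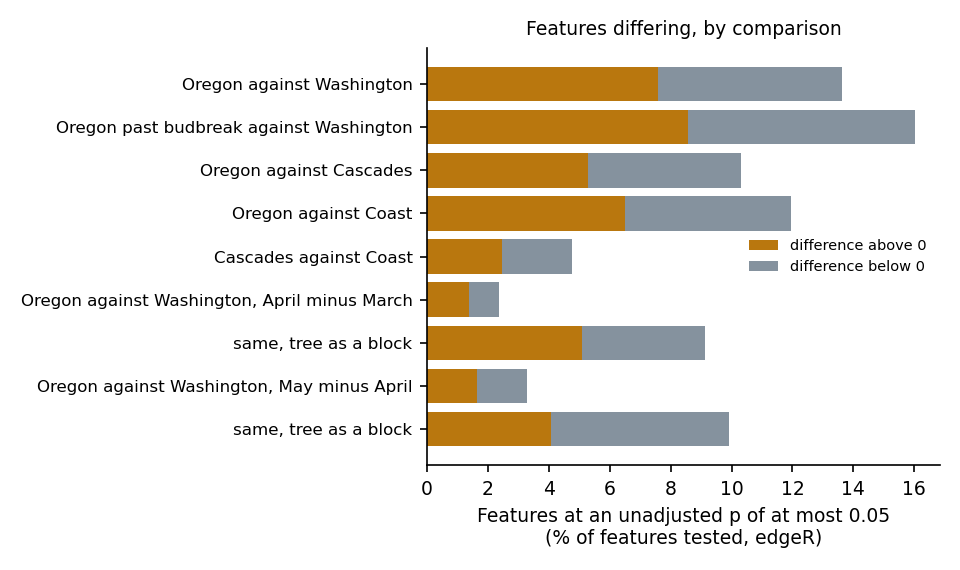
Share of the 33614 features tested with an unadjusted p of at most 0.05 in edgeR (horizontal axis, %) for each comparison of 7 April and for the 2 comparisons of changes between dates, each without and with the tree as a block, divided into differences above and below 0 in the order of the names. The share was 13.6% for Oregon against Washington, 16% with tree 90 left out and 4.77% between the 2 Washington sources, and the block moved the changes between dates from 2.37% and 3.27% to 9.13% and 9.93%.

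Comparing only the 3 post-budbreak Oregon trees with the 8 Washington trees gave slightly more differences than comparing all 4. Without tree 90, 5390 features (16%) had an unadjusted p of at most 0.05, the highest number when any 1 of the 12 trees was left out (the lowest was 3279, without Oregon tree 89). The adjusted edgeR calls were still 0 at 0.01 (DESeq2 made 287) and 0 at 0.05, with 124 at 0.10 against 35 for all 4 trees. The smallest adjusted p in edgeR was 0.072.

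Separation without overlap showed the same contrast between tree 90 and the others. In 236 features (0.702%) all 4 Oregon trees were above all 8 Washington trees, and in 267 (0.794%) all 4 were below. On total counts these numbers were 112 and 498 of the same 33614 features. The 3 post-budbreak Oregon trees were above all Washington trees in 726 features (2.16%) and below in 993 (2.95%), and of these 1719 features tree 90 was also apart in 503, or 29.3%, and within the range of the Washington trees in 1132, or 65.9%. When another Oregon tree was left out in place of tree 90, that tree was also apart in 503 of 862 (tree 44), 503 of 1068 (tree 46) and 503 of 857 (tree 89) features that separated the other 3. The 503 are the same features each time, those in which all 4 Oregon trees were apart. The tree left out was within the Washington range in 37.9% (tree 44), 50.7% (tree 46) and 34.9% (tree 89) of the features that separated the other 3. No feature had more than 5 counts in all 4 Oregon libraries and 0 in all 8 Washington libraries, and none had the reverse. For the 3 post-budbreak trees alone there was 1 such feature, which also had 0 counts in tree 90.

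Each tree was then placed on a scale in which it had no part. For each tree in turn, edgeR was run without it, the 500 features with the smallest p were taken, and the tree's median position between the mean of the remaining Washington trees (0) and the mean of the remaining Oregon trees (1) was read. Tree 90 lay at 0.304. The 3 post-budbreak Oregon trees lay at 0.583 (tree 44), 0.521 (tree 46) and 0.593 (tree 89). The 8 Washington trees, treated in the same way, had a lowest position of -0.141 in tree 05, a median of 0.218 and a highest of 0.454 in tree 38. On these lists the post-budbreak Oregon trees lay above every Washington tree and tree 90 lay within the Washington range, below trees 38 and 12. Tree 46 lay at 0.363, below Washington tree 38, when only the 6 features at an adjusted p of at most 0.05 were used. The positions come from overlapping sets of libraries and are given with no test between the groups.

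The position of a tree also moved with the make-up of its library. Among the 8 Washington trees, all of the same recorded state, the position rose with the share of counts in the 50 most abundant features (Pearson's r = 0.808, exact permutation p = 0.0149, adjusted p = 0.0298; Spearman's rho = 0.857, exact permutation p = 0.0107, adjusted p = 0.0214; 2 relations were computed). Without the 2 trees farthest from the median share, r was 0.876. With the number of detected features r was -0.737 (exact permutation p = 0.0381, adjusted p = 0.0381) and rho -0.690 (exact permutation p = 0.0694, adjusted p = 0.0694), and r was -0.569 without the 2 farthest trees. These 8 trees include pairs of half-siblings, and their positions rest on shared libraries, which the permutations do not take into account. Washington tree 38, with the highest share of any tree, had the highest Washington position. Tree 90 had both the lowest share and the lowest position of the Oregon trees, and the part of library make-up in its position was not tested.

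**Figure D3:**
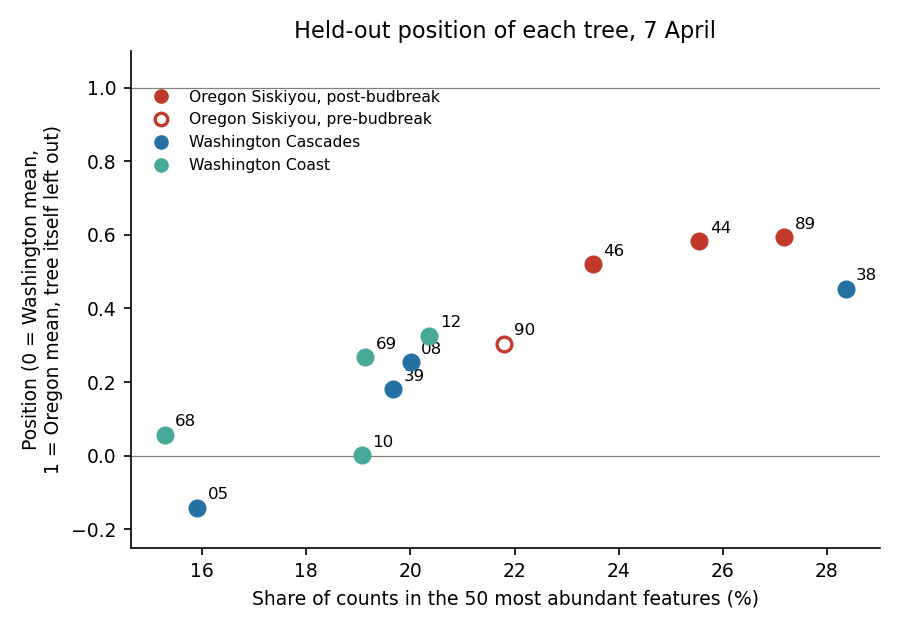
Position of each of the 12 trees on 7 April (vertical axis, no unit; 0 is the mean of the Washington trees and 1 the mean of the Oregon trees, each without the tree shown) against the share of its counts in the 50 most abundant features (horizontal axis, %). The filled red points, the post-budbreak Oregon trees, lie at 0.521 to 0.593, and the open point, tree 90, lies at 0.304, within the Washington range of -0.141 to 0.454.

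All 11 trees with a library of 10 March were then labelled pre-budbreak, so the March libraries of the same trees show whether the April difference was already there. The 500 features with the smallest p on 7 April, 341 higher and 159 lower in Oregon trees, had a median difference of 1.21 log2 units in the April direction on that date, as chosen. In March their median difference was 0.70, and 476 of the 500 (95.2%) had the sign they had in April. Over all features tested, the median in the April direction was 0.17 in March, with 70% of the same sign. The difference of the 500 features was 0.72 on 6 May, when 7 of 8 Washington trees were past budbreak, and 0.45 on 17 June, when 413 (82.6%) kept the sign. Because each date drew on the same trees, the other dates are not separate replicates of the sources.

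The individual trees were ordered differently in March and April. In March tree 90 had the largest difference of the 4 Oregon trees on these features, 1.02 log2 units, against 0.43, 0.63 and 0.58 in trees 44, 46 and 89. In April tree 90 had the smallest, 0.90, against 1.17, 1.13 and 1.40. All the Oregon values were above the highest Washington value of their date, which was 0.16 in March and 0.13 in April. The April libraries of all 4 Oregon trees had a part in choosing these features, so the April separation was built in. On a list ranked without tree 90's April library, the difference of tree 90 from the Washington mean was 0.84 in March and 0.35 in April, followed by 0.18 in May and 0.25 in June. That of the other 3 Oregon trees together was 0.49 in March and 1.31 in April, followed by 0.68 in May and 0.29 in June. The April values of the other 3 trees chose that list. The flowcell of each tree differed between March and April, and tree 89 was on the same flowcells as tree 90 on both dates.

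**Figure D4:**
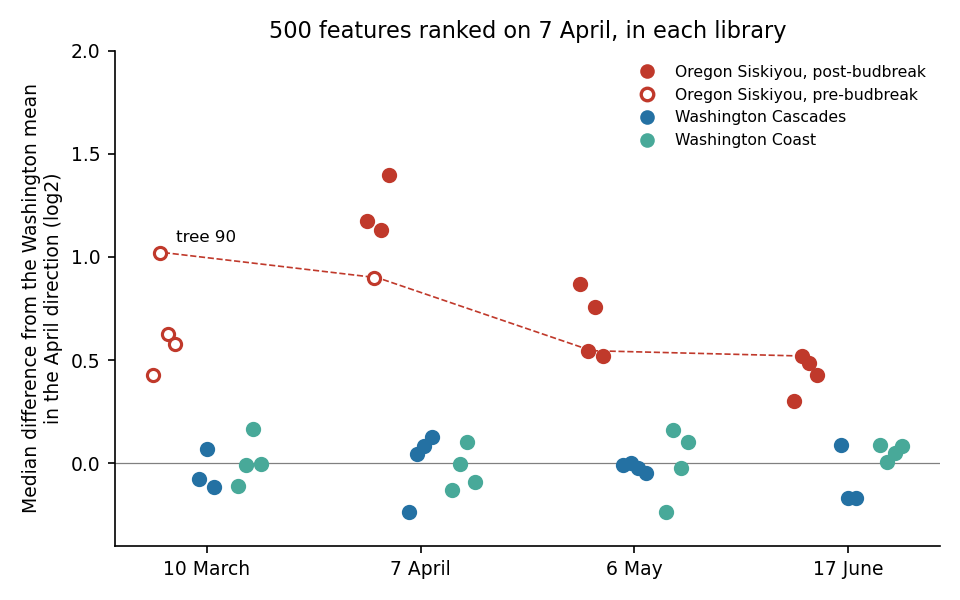
Median difference of each library from the Washington mean of its date, in the direction seen on 7 April (vertical axis, log2), over the 500 features with the smallest April p. Each point is 1 tree, open points are Oregon trees labelled pre-budbreak, and the dashed line joins the libraries of tree 90. The Oregon trees lie above all Washington trees on each of the 4 dates, at 0.43 to 1.02 in March and 0.90 to 1.40 in April. The April values chose the features, so the separation on that date was built in.

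For a change of the difference between Oregon and Washington trees from March to April, 796 features (2.37%) passed the unadjusted level of 0.05, and from April to May 1099 (3.27%) did, while the adjusted calls of edgeR and DESeq2 were 0 for both steps. With the tree as a block, which removes constant differences between trees, the numbers past the unadjusted level were 3069 (9.13%) and 3338 (9.93%), with 0 calls at 0.01 for both and 4 and 0 at 0.05. Without tree 90 the unblocked March to April number was 1369, and without tree 89 the April to May number was 568. No test was made of whether the features that separated the groups in April were those with a low p for the change.

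No advance of the Oregon needles along the seasonal path was detectable on 7 April. Between 10 March and 6 May, 11325 features (33.7% of those tested) changed in the 11 trees with libraries on both dates, 5392 upward and 5933 downward (edgeR with the tree as a block, adjusted p of at most 0.01). Oregon trees 44, 90, 46 and 89 had by 7 April covered 34.5%, 15.1%, 8.90% and 14.2% of their own March to May change in these features. In the 7 Washington trees the lowest share was 14.1% in tree 10, the median 21.5% and the highest 40.6% in tree 05. The mean was 18.2% ± 11.2 in Oregon trees (SD, n = 4) and 24.4% ± 10.0 in Washington trees (SD, n = 7), and the groups overlapped (exact two-sided permutation test, p = 0.336). The difference of -6.23 percentage points was -11.6 without Oregon tree 44 and -2.46 without Oregon tree 90. It was -12.3 (exact permutation p = 0.0788) on a list ranked in Coast trees, 0.39 (exact permutation p = 0.948) on one ranked in Oregon trees and -0.14 (exact permutation p = 0.985) for the change from March to June. The shares also moved with the flowcell, which differed between the March and April libraries of every tree. The mean was 26.7% in the 6 trees on fc1025 in April and 16.7% in the 5 on fc1022. On fc1025 it was 21.7% in Oregon trees 44 and 46 and 29.2% in 4 Washington trees, and on fc1022 it was 14.7% in Oregon trees 89 and 90 and 18.1% in 3 Washington trees. Pre-budbreak tree 90 and post-budbreak tree 89, both on fc1022 in April, differed by less than the 3 Washington trees of that flowcell (14.4% to 21.5%). On fc1025 the post-budbreak trees 44 and 46 had 34.5% and 8.90%. The part of bud state in the share was not tested, and 1 pair of trees cannot show it. Washington tree 05, the only Washington tree labelled post-budbreak by 22 April, had the highest share of all 11 trees, on fc1025, and it was singled out after its value was seen.

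Features of the seasonal change differed by origin at a share near that of all features. Of the 11325 seasonal features, 1482 (13.1%) had an unadjusted p of at most 0.05 between Oregon and Washington trees on 7 April, beside 13.6% of all features. In 835 of them the Oregon level lay toward the May side and in 647 toward the March side. The median difference in the May direction over all 11325 was 0.0089 log2 units.

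The feature gene73506 was the most abundant of the 3 with an adjusted p of at most 0.05. It had 93.4, 46.8, 29.7 and 35.8 CPM in Oregon trees 44, 90, 46 and 89. In the Washington trees the lowest value was 0 CPM, in tree 39, the median 0.315 and the highest 3.82 CPM, in tree 05, so the groups did not overlap and tree 90 lay among the other Oregon trees. The mean was 51.4 ± 28.9 CPM in Oregon trees (SD, n = 4) and 0.719 ± 1.27 CPM in Washington trees (SD, n = 8), a log2 change of 6.23 (SE 0.75, edgeR adjusted p = 0.0349). Without tree 05 the log2 change was 8.04 and the adjusted p in edgeR 1.48e-05. In 7 of the 12 fits without 1 tree (44, 90, 38, 10, 69, 12 or 68) the adjusted p in edgeR was over 0.05, the highest being 0.0859. It was 0.267 in edgeR with counts added up per family, and 2.17e-06 in DESeq2. The groups were already apart when all were labelled pre-budbreak, with 15.4 to 42.8 CPM in Oregon trees in March against 0 to 2.52 CPM in Washington trees, and the difference in April minus that in March was 1.00 on the log2 scale (edgeR unadjusted p = 0.397). Tree 05 carried 17.2 CPM in May and 21.6 CPM in June, when no other Washington tree exceeded 0.353 CPM.

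The feature gene47717 had 12.5, 4.54, 19.6 and 4.44 CPM in Oregon trees 44, 90, 46 and 89. The Washington trees had a lowest value of 0.154, a median of 0.646 and a highest of 1.32 CPM, again in tree 05. The log2 change was 3.88 (SE 0.49, edgeR adjusted p = 0.0349). With counts added up per family the adjusted p in edgeR was 0.215, and in 9 of the 12 fits without 1 tree it was over 0.05. DESeq2 gave 4.22e-09. Tree 90 was at the level of post-budbreak tree 89, both above every Washington tree. In March the Oregon trees had 11.9 to 28.6 CPM and the Washington trees 0.461 to 5.20 CPM. By June the Oregon range was 16.1 to 279.8 CPM and the Washington range 0.884 to 27.9 CPM, and the groups overlapped.

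In this edgeR fit no feature lower in Oregon trees passed either threshold, and the pair given here had the smallest p among the features that were lower without overlap and had a mean count of at least 50. The feature gene4197 had 4.63, 3.33, 3.66 and 3.00 CPM in Oregon trees 44, 90, 46 and 89, against a lowest value of 7.00, a mean of 11.1 ± 2.74 (SD, n = 8) and a highest of 15.1 CPM in Washington trees (log2 change -1.61, SE 0.24, edgeR adjusted p = 0.0774). The 4 Oregon values were close together, tree 90 included. In March the groups overlapped, with 4.76 to 9.41 CPM in Oregon trees and 6.33 to 15.4 CPM in Washington trees. The change of the difference from March to April was -0.91 on the log2 scale, with an unadjusted p of 0.0226 in edgeR. The feature was chosen for its April difference, which favours such a change. Of the 33614 features tested, 0 had an adjusted p of at most 0.10 in edgeR for this change. The adjusted p for 7 April was 0.00839 in edgeR with no filter, 0.0375 with the flowcell as a covariate, 0.0199 with all 46 libraries and 1.12e-06 in DESeq2, and the highest over all alternatives was 0.456, on flowcell fc1022 alone.

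The feature gene31129 had 2.71, 1.13, 1.02 and 1.06 CPM in Oregon trees 44, 90, 46 and 89. The Washington trees had a lowest value of 3.96, a median of 6.88 and a highest of 23.7 CPM, in tree 05 (log2 change -2.48, SE 0.38, edgeR adjusted p = 0.0775). On 10 March the groups overlapped, at 2.97 to 4.70 CPM in Oregon trees and 2.43 to 29.4 CPM in Washington trees. The adjusted p for 7 April was 0.00411 in edgeR with no filter and 5.04e-07 in DESeq2, and the highest over all alternatives was 0.593, with the share of abundant features as a covariate. The groups overlapped again on 6 May, at 0.0925 to 8.75 CPM in Oregon trees and 1.11 to 62.7 CPM in Washington trees. For all 4 features tree 90 lay on the Oregon side of every Washington tree, as the choice of features without overlap required.

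**Figure D5:**
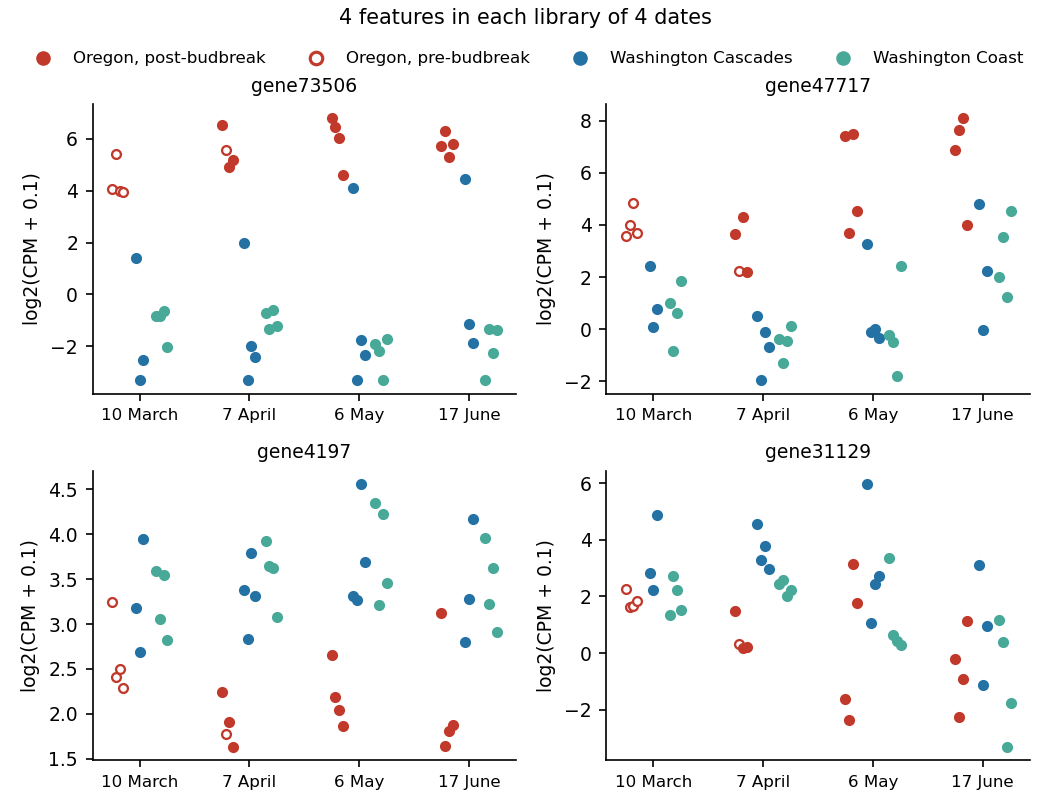
Level of 4 features in each library of 10 March, 7 April, 6 May and 17 June (vertical axes, log2 of CPM + 0.1; each panel has its own range). Each point is 1 tree and open points are Oregon trees labelled pre-budbreak. On 7 April the 4 Oregon trees lie above all Washington trees for gene73506 and gene47717 and below them for gene4197 and gene31129, and the single blue point near the Oregon trees for gene73506 in May and June is tree 05.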

How the data were processed

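Strand-specific RNA-seq libraries of needles were aligned and counted by the authors, who deposited 1 table of whole-number counts per feature. CASAVA 1.8 and Bowtie2 stand among the tools in the submitters' processing notes. Which reference and which read counter gave this table is not given in the sources used here. Deposited totals had been brought to nearly 1 depth (11293394 to 11302021 over 46 libraries), a step the sources do not describe, so the precision of more deeply sequenced libraries is not in the counts. Of 47 columns, 1 was not used, because the labels and the study's sample table give it different dates.

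Counts were tested in R 4.3.3 with edgeR 4.0.16 (TMM factors, quasi-likelihood test, 1 mean per source, Washington as the mean of its 2 sources, Benjamini-Hochberg adjustment, threshold 0.01). Features needed more than 5 counts in 4 of 12 libraries. DESeq2 1.42.0 was an alternative, where an adjusted p of NA stayed NA. Log2 CPM used a prior count of 2. Single values were compared by exact permutation over trees, with 495 or 330 regroupings. The edgeR fit was tried on simulated counts drawn independently for each tree, with no families and no differences in library make-up. How it behaves with those was not tested. Libraries of the same tree deviated together (mean r across features 0.595 between March and April, lowest 0.280, in 11 of 11 trees over 0.1; 0.563 between April and May, 12 of 12), so trees pair the dates.

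The members and lists were chosen with earlier results of these data known. The features to be named were to be the largest called changes. Since edgeR called none, the 2 of highest mean count among those at an adjusted p of at most 0.05 and the 2 lower features with the smallest p, a mean count of at least 50 and no overlap were chosen after their values were seen. For the same reason positions rest on the 500 smallest p. Alternatives were other scalings, filters, thresholds and list sizes, flowcell terms, family sums and leaving out each tree.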

Additional observations from a re-analysis of the deposited data

Results flagged for a closer look

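The 4 Oregon values of gene31129 on 7 April held 1 tree that stood apart from the others. Tree 44 was at 1.53 log2 CPM (prior count of 2), against 0.26 to 0.39 in trees 90, 46 and 89. The gap to the nearest tree was 0.896 of the range of the 4 values. Among 23 groups of 4 values examined in this way this was the only 1 past the limit, and chance alone passes about 1 group in 20. Without tree 44 the log2 change of gene31129 between Oregon and Washington trees was -2.94.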

How the results depend on the processing

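No alternative turned the direction of the 4 named features in 27 fits each. These features were chosen for April values without overlap, so the kept direction says little about the processing. For Oregon against Washington trees edgeR called 0 features, against 160 with DESeq2, 41 with no filter, 10 with all 46 libraries in 1 fit, 3 at an adjusted p of at most 0.05 and 2 on flowcell fc1022 alone, and 0 to 1 when each tree was left out. DESeq2 called 287 features for the 3 post-budbreak Oregon trees (0 to 1 in edgeR with 1 more tree left out), 92 against Cascades trees (0 to 2) and 88 against Coast trees (edgeR 2, 6 at 0.05, 0 to 4), and 29 for Cascades against Coast trees (edgeR 4, 7 at 0.05, 1 to 4). The number at an unadjusted p of at most 0.05, 4580, moved to 6997 with no filter, 2499 on flowcell fc1022 alone, 2006 with the share of abundant features and 2453 with the number of detected features as a covariate, and lay between 3279 and 5390 when each tree was left out. The other ranges without 1 tree were 4038 to 5777 for the post-budbreak Oregon trees, 2492 to 4278 against Cascades, 2875 to 4857 against Coast, 1372 to 1936 for Cascades against Coast, 608 to 1369 for April minus March and 568 to 1315 for May minus April. With the tree as a block (replicate block) the last pair moved to 3069 and 3338 features. The share of the March to May change, 6.23 percentage points lower in Oregon trees (a difference of -6.23), was 0.39 points higher on a list ranked in Oregon trees alone (exact permutation p = 0.948) and -11.6 to -2.46 without 1 tree, with exact permutation p from 0.0917 to 0.733. The difference in abundant features was 3.89 to 6.02 points and that in detected features -2728 to -1419. The position of tree 46 moved to 0.363 on the 6 features at an adjusted p of at most 0.05. For trees 44 and 90 no feature reached that level, so this alternative gave no value. The causes of these changes were not tested. With 4 Oregon trees from 2 families, and 3 of them past budbreak, the data cannot tell origin, family and bud state apart.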
